A study of Mus musculus with 9 samples.

Results

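The MHC class I antigen processing genes make, trim, carry and load the peptides that a cell shows on its surface. They were followed here in cultured mouse granulosa cells, the steroid-making cells of the ovarian follicle, after infection with 3 adenoviruses. The 10 genes named for this set were Tap1, Tap2, Tapbp, B2m, Psmb8, Psmb9, Psmb10, Psme1, Psme2 and Erap1. A member was any probe set (the group of oligonucleotides on the array that reads 1 transcript) whose only gene symbol in the platform annotation was 1 of these. Of the 10 genes, 9 were found, on 16 of the 45037 probe sets tested and among 18193 named genes. Psme2 was not analysed here, because its only probe set lists several symbols. The genes were chosen by differences already seen between these groups in the log2 values of the same 9 arrays, so their values in the 3 comparisons are given as a description.

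Granulosa cells came from mice 20 to 26 days old, of various genotypes, 48 h after eCG, the gonadotropin that starts follicle growth. The cells attached overnight in medium with 1% serum and were then infected for 24 h without serum, at about 50 infectious units per cell. The control virus carried eGFP (the GFP arrays), the second carried the recombinase Cre, and the third carried Wnt4, a secreted signalling protein (the WNT4 arrays). Each group had 3 arrays, numbered as biological replicates. The virus that all groups share is part of the baseline, and uninfected cells were not analysed here. The series' design text reports that over 80% of cells were infected in preliminary tests, and that the Cre virus recombined floxed Ctnnb1, the beta-catenin gene. The genotype behind each array is not given, so genotype and virus cannot be told apart. Nor do the labels say whether replicates came from separate animals, so p-values measure only the spread between these arrays.

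Values are log2 expression values as the submitters deposited them, so a difference of 1 is a doubling. Array medians lay between 5.44 and 5.54. The WNT4 1 array stood apart: its upper quartile was above that of the other 8 arrays, which lay at 7.68 to 7.87, and its 3′ minus 5′ differences for the actin and Gapdh control probes were the highest, at 1.38 and 2.17. Cre 3 had the lowest Gapdh difference, 0.95. The targeted genes were no clear check of the labels. The Wnt4 probe set 1450782_at averaged 9.41 ± 0.45 on GFP, 10.63 ± 0.55 on Cre and 9.34 ± 0.48 on WNT4 arrays (SD, n = 3). Its other probe set, 1441687_at, averaged 8.32 ± 0.78, 9.62 ± 0.51 and 9.29 ± 0.82. Whether either probe set reads the viral Wnt4 transcript is not known here. The 3 Ctnnb1 probe sets were not lower on Cre than on GFP arrays, and whether they read the floxed part is not known either. Groups are therefore named by their labels. Of 17 granulosa markers 16 averaged over 6, among them the transcription factor gene Foxl2, between 10.09 and 10.70, and the inhibin subunit gene Inha, between 12.88 and 13.96. Fshr, the FSH receptor gene, lay between 7.11 and 8.27, and Amh was dim, between 5.84 and 6.23.

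In the class I pathway, cytosolic proteins are cut by the proteasome, and interferon exchanges its constitutive catalytic subunits for the immunosubunits encoded by Psmb8, Psmb9 and Psmb10. Psme1 and Psme2 encode the PA28 activator, which opens the proteasome core. The peptides enter the endoplasmic reticulum through the transporter formed by TAP1 and TAP2, are trimmed by the aminopeptidase ERAP1, and are loaded by tapasin (Tapbp) onto a heavy chain held by the light chain beta-2-microglobulin (B2m). Nearly every nucleated cell runs this pathway at a low level, and interferons raise most of its genes together.

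Promoter windows are shown for 4 members, because the genes of this pathway are known for shared interferon, STAT and SXY-module elements and because several of them lay high on the same arrays. Windows run from 250 bases before to 50 bases after the annotated start and come from RefSeq on GRCm38.p6. A window was found for 9 of the 10 genes, and Tap2 had none in the table. Capitals mark matches, on either strand, to GAAANNGAA (core letters of an interferon-stimulated response element), TTCNNNGAA (the palindrome bound by STAT dimers), TGACG (the core of an X2 or cyclic AMP element) and CCAAT (the Y box, often in reverse). B2m lies at chr2:122147437-122147736 on the plus strand, Tap1 at chr17:34187306-34187605 (plus), Psmb8 at chr17:34197945-34198244 (plus) and Psme1 at chr14:55578244-55578543 (plus).
B2m: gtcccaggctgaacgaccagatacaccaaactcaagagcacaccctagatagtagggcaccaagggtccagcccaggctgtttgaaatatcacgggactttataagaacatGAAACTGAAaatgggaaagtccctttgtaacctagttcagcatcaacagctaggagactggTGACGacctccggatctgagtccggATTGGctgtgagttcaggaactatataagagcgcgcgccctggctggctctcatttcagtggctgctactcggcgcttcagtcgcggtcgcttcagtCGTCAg
Tap1: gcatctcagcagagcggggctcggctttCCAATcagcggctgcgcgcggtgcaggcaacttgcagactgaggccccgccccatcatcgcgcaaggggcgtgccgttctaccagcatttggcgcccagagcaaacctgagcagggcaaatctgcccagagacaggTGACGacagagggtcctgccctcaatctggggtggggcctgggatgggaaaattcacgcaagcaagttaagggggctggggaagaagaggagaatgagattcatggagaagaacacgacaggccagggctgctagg
Psmb8: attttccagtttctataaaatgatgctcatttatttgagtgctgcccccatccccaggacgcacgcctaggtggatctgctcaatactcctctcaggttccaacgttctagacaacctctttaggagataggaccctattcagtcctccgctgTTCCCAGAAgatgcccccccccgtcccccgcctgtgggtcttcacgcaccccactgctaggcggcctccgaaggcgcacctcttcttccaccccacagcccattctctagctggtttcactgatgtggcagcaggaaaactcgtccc
Psme1: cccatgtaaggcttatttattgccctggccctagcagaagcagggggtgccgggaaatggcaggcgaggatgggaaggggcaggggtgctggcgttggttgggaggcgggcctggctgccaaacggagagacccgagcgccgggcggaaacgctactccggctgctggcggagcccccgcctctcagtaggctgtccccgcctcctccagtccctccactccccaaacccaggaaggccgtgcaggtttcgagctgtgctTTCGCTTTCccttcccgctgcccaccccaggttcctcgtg
The B2m window held GAAACTGAA 139 bases before the start, a match to the NF-kappaB consensus 126 bases before it (not in capitals), TGACG 78 bases before it and the reverse of CCAAT 53 bases before it. The Tap1 window is also that of Psmb9: the starts of both genes lie 226 bases apart on opposite strands, and their windows share 275 bases, chr17:34187306-34187580. Psmb8 and Tap2 are the next members along the same stretch of chromosome 17.
Among the members with a window, GAAANNGAA was found for B2m, Psme1 and Erap1, and 8.56% of all 32851 windows held it. In Psme1 it stood on the other strand, 10 bases after the start. TTCNNNGAA was found for Psmb8 and in 8.30% of windows, and the NF-kappaB consensus for B2m and in 6.93%. TGACG (B2m, Tap1, Psmb9 and Psme2) and CCAAT (B2m, Tap1, Psmb9 and Tapbp) are short and stood in 20.8% and 37.4% of windows. A match is a string of letters and not a measured site.

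With WNT4 against GFP, 7 of the 9 genes read higher on every WNT4 array than on any GFP array: B2m, Tap1, Tap2, Tapbp, Psmb8, Psmb9 and Psmb10. Psme1 and Erap1 overlapped between the groups. The median difference over the 9 genes was 0.85, with a range of 0.21 to 1.37, while the median over all named genes was 0.02. None of the 16 member probe sets passed limma's test at an adjusted p under 0.05, a rule that called 7 of all probe sets (0.0155%). The lowest adjusted p of a member was 0.1003. At an unadjusted p under 0.05, limma put 8 of the 16 higher and 0 lower, where 9.12% of all probe sets were higher and 3.91% lower. The same number, 8 of 16, had WNT4 arrays wholly above the GFP arrays, where 9.28% of all probe sets did, and 0 had them wholly below, where 5.49% did. Because these values chose the members, nothing is read from their count.

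B2m, the light chain of every class I molecule, had, with Tap1, one of the 2 largest differences in the deposited values. Its probe set 1449289_a_at read 11.60, 11.65 and 11.66 on GFP arrays, 12.03, 12.08 and 12.55 on Cre arrays, and 13.44, 12.45 and 13.13 on WNT4 arrays. The GFP arrays were nearly equal, and both other groups lay wholly above them. The Cre and WNT4 arrays overlapped, since WNT4 2 was below Cre 3. WNT4 exceeded GFP by 1.37 ± 0.24 (SE), or 2.59-fold, and Cre exceeded GFP by 0.59. The other B2m probe set gave 1.28 ± 0.23 and 0.54. Without the WNT4 1 array the difference of 1449289_a_at from GFP was 1.16. After quantile normalization it was 0.97, below Tap1 at 1.19 and Psmb8 at 1.00.

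The TAP transporter genes were the only members in which the groups stood in the order GFP, Cre, WNT4 with no overlap at all, a pattern found in 193 of all probe sets (0.429%). Tap1 read 7.83, 7.46 and 7.63 on GFP arrays, 8.18, 8.19 and 8.29 on Cre arrays, and 9.49, 8.83 and 8.68 on WNT4 arrays. All 3 Cre arrays sat within a narrow band above GFP, and WNT4 1 was the highest of the 9. The WNT4 difference from GFP was 1.36 ± 0.20, or 2.57-fold, and the Cre difference was 0.58 ± 0.20. These values come from 1416016_at. The other 3 Tap1 probe sets were dim, between 3.90 and 5.37, with differences of WNT4 from GFP between -0.15 and 0.04. A mean over the 4 probe sets gave 0.33.

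Tap2, the partner subunit, read 7.96, 7.54 and 7.79 on GFP arrays, 8.07, 8.18 and 8.04 on Cre arrays, and 8.76, 8.68 and 8.30 on WNT4 arrays. Its steps were smaller than those of Tap1, and at the closest Cre 3 stood at 8.04 against 7.96 on GFP 1. WNT4 exceeded GFP by 0.82 ± 0.15 and Cre exceeded it by 0.34 ± 0.15.

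Tapbp, which encodes the tapasin bridge between TAP and the heavy chain, read 10.48, 10.02 and 10.45 on GFP, 10.31, 10.75 and 11.44 on Cre, and 11.39, 10.80 and 11.70 on WNT4 arrays. Its highest arrays were Cre 3 and WNT4 3, and WNT4 1 was below Cre 3. The difference of WNT4 from GFP was 0.97 ± 0.31 and that of Cre was 0.51 ± 0.31, and Cre overlapped both other groups. Without Cre 3 the Cre difference was 0.21. The second Tapbp probe set had overlapping groups and a difference of 0.36 ± 0.25.

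**Figure D1:**
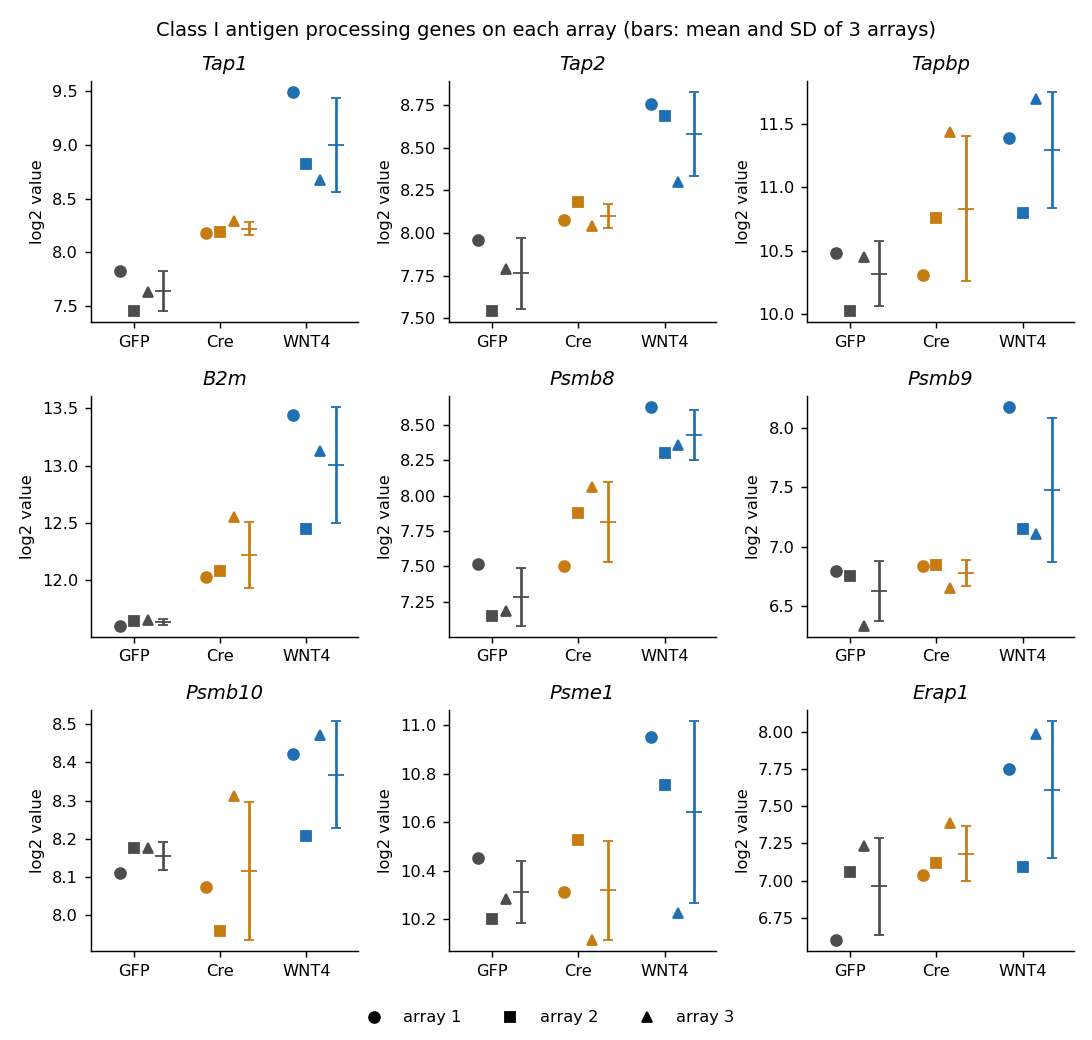
Log2 expression of the 9 class I processing genes on each of the 9 arrays, 1 panel per gene, with the group mean as a bar. Tap1 and Tap2 step up from GFP to Cre to WNT4 without overlap, while the Psme1 and Erap1 groups overlap.

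The immunoproteasome subunits did not move alike. Psmb8 (LMP7, the chymotrypsin-like immunosubunit) read 7.52, 7.15 and 7.18 on GFP, 7.50, 7.87 and 8.06 on Cre, and 8.63, 8.30 and 8.36 on WNT4 arrays. Its WNT4 arrays were tight and above all others, and Cre 1 was just below the highest GFP array. The difference of WNT4 from GFP was 1.15 ± 0.17, or 2.21-fold, and 1.05 without WNT4 1. A second, dim Psmb8 probe set, at 4.07 to 4.49, gave 0.13.

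Psmb9 (LMP2, which replaces the caspase-like subunit) read 6.79, 6.76 and 6.33 on GFP, 6.83, 6.85 and 6.65 on Cre, and 8.18, 7.15 and 7.11 on WNT4 arrays. WNT4 1 lay about 1 log2 unit above the other WNT4 arrays, and GFP and Cre overlapped. The difference from GFP of 0.85 ± 0.27 was 0.50 without WNT4 1.

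Psmb10 (MECL-1, the trypsin-like immunosubunit) read 8.11, 8.17 and 8.17 on GFP, 8.07, 7.96 and 8.31 on Cre, and 8.42, 8.21 and 8.47 on WNT4 arrays. The WNT4 arrays were above the GFP arrays by a small margin, with 8.21 against 8.17 at the closest. The difference was 0.21 ± 0.12. It was 0.04 after quantile normalization and 0.06 with arrays centred on the 75th percentile.

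Setting each immunosubunit against the constitutive subunit that it replaces removes a shift that is equal over an array. It does not remove one that depends on signal level, and the constitutive subunit was the brighter of each pair. For WNT4 against GFP, quantile normalization took the constitutive median from 0.42 to 0.07 and Psmb10 from 0.21 to 0.04. The pairs below use the deposited values. Psmb8 minus Psmb5, relative to the GFP mean, was 0.61, 0.63 and 0.55 on WNT4 arrays and 0.22, 0.33 and 0.79 on Cre arrays. The GFP arrays gave 0.25, -0.02 and -0.23, so the WNT4 arrays lay above all GFP arrays, by nearly equal amounts, and Cre overlapped GFP. Psmb9 minus Psmb6 was 1.11, 0.26 and 0.41 on WNT4, 0.21, 0.16 and 0.36 on Cre, and 0.21, 0.14 and -0.36 on GFP arrays. WNT4 1 alone carried the large value there. Psmb10 minus Psmb7 averaged -0.20 ± 0.20 (SD, n = 3) on WNT4 and -0.01 ± 0.38 on Cre arrays. In the deposited values, Psmb7 was thus as far above its GFP mean as Psmb10, or farther, on each WNT4 array. The smallest p that an exact permutation test of 3 arrays against 3 allows is 0.1, and these differences of differences are given without a test.

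**Figure D2:**
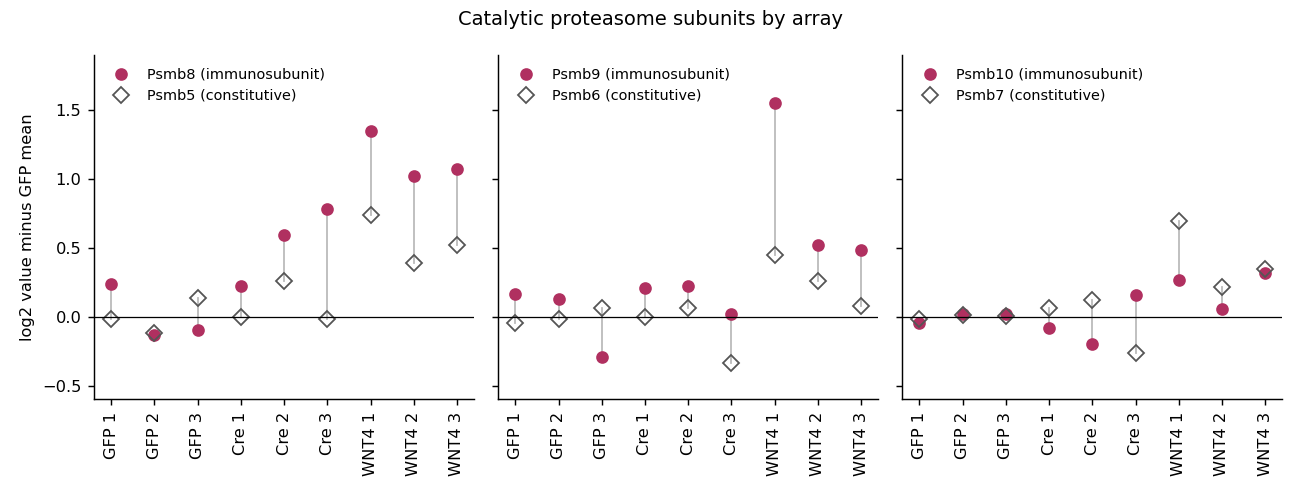
Log2 change from the GFP mean of each immunosubunit and of the constitutive subunit that it replaces, on each of the 9 arrays. Psmb8 lies above Psmb5 by 0.61, 0.63 and 0.55 on the WNT4 arrays, whereas Psmb10 does not lie above Psmb7 on any of them.

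Psme1, the alpha subunit of the PA28 activator, read 10.45, 10.20 and 10.28 on GFP, 10.31, 10.53 and 10.12 on Cre, and 10.95, 10.75 and 10.23 on WNT4 arrays. WNT4 3 was as low as the GFP arrays while WNT4 1 and 2 were above all others. The difference of WNT4 from GFP was 0.33 ± 0.19. It was 0.18 without WNT4 1, 0.54 without WNT4 3 and 0.06 after quantile normalization.

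Erap1, the trimming aminopeptidase, read 6.60, 7.06 and 7.23 on GFP, 7.04, 7.12 and 7.39 on Cre, and 7.75, 7.09 and 7.98 on WNT4 arrays. WNT4 2 lay among the GFP and Cre arrays, and the other WNT4 arrays were above them. The difference from GFP was 0.65 ± 0.24. A second probe set, at 4.28 to 4.66, gave 0.04.

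Within WNT4, the members differed in which array was highest. Tap1, Tap2, B2m, Psmb8, Psmb9 and Psme1 were highest on WNT4 1, and Tapbp, Psmb10 and Erap1 on WNT4 3. Some margins were small, with 8.76 on WNT4 1 against 8.68 on WNT4 2 for Tap2. For Psmb10 it was 8.47 on WNT4 3 against 8.42 on WNT4 1. No grouping of the genes is read from this order. WNT4 2 was the lowest WNT4 array for 5 of the 9 genes, namely B2m, Tapbp, Psmb8, Psmb10 and Erap1. Leaving it out made 748 probe sets pass limma's adjusted threshold (1.66%), 4 of them members: both of B2m, 1416016_at of Tap1 and the brighter one of Psmb8, with a lowest adjusted p of 0.0272. Leaving out any other array left no member past it. The median difference over the 9 genes ran from 0.73 without WNT4 1 to 1.02 without WNT4 2. Without WNT4 1, Tap1 differed from GFP by 1.11, Tapbp by 0.93, Tap2 by 0.73, Erap1 by 0.58 and Psmb10 by 0.19.

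With Cre against GFP, the differences were smaller, and the 9 genes split. B2m, Tap1, Psmb8, Tapbp and Tap2 differed by 0.34 to 0.59, Erap1 and Psmb9 by 0.22 and 0.15, and Psme1 and Psmb10 by 0.01 and -0.04. The median was 0.34, against -0.01 for all named genes. Limma called none of the members and 0 of all probe sets at an adjusted p under 0.05 (0%), with every member's adjusted p at 1.00. At an unadjusted p under 0.05 there were 5 member probe sets higher, of 4 genes, and 0 lower, where 1.01% of all probe sets were higher, 1.22% lower and 2.23% either. Cre arrays lay wholly above GFP for 4 member probe sets, of B2m, Tap1 and Tap2, and wholly below for 0, where 2.98% and 3.04% of all probe sets did. Cre 3 was the highest Cre array for B2m, Tap1, Tapbp, Psmb8, Psmb10 and Erap1. Without it the median difference was 0.21.

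With WNT4 against Cre, all 9 genes had higher means on WNT4, by 0.25 (Psmb10) to 0.79 (B2m), with a median of 0.48. These differences use no GFP array, but the spread behind limma's p-values was estimated from all 9 arrays. Limma called none of the members and 0 of all probe sets at an adjusted p under 0.05 (0%), and the lowest adjusted p of a member was 0.773. At an unadjusted p under 0.05, 6 member probe sets were higher and 0 lower, where 5.07% of all probe sets were higher, 1.17% lower and 6.23% either. WNT4 arrays lay wholly above Cre for 4 members, Tap1, Tap2, Psmb8 and Psmb9, and wholly below for 0, where 5.38% and 2.85% of all probe sets did. The median was 0.39 without WNT4 1 and 0.69 without WNT4 2. All 3 comparisons share arrays in pairs, so their values stand side by side and are not independent of each other.

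**Figure D3:**
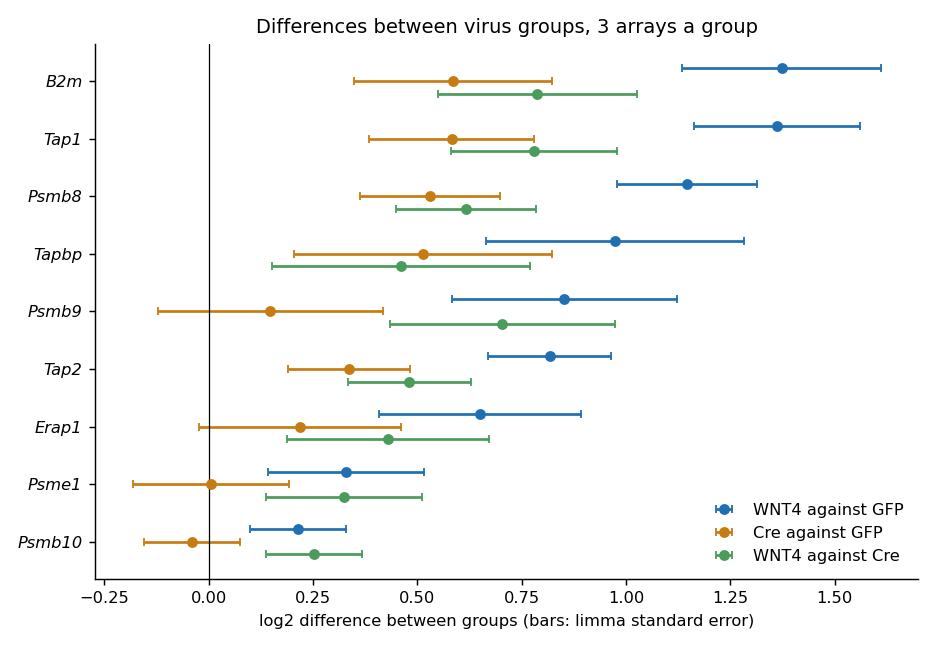
Log2 difference of each of the 9 genes in the 3 comparisons, as points with bars of 1 standard error. The WNT4 against GFP points run from 0.21 to 1.37, and the Cre against GFP points of Psme1 and Psmb10 lie near 0.

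The lists of other genes are given by their counts past limma's unadjusted p of 0.05, to be read against all probe sets, of which 9.12% were higher and 3.91% lower with WNT4 against GFP and 1.01% higher with Cre against GFP. The classical heavy chains, which pair with B2m, were high on the same arrays. H2-K1 read 10.86, 10.64 and 10.90 on GFP, 10.82, 11.03 and 12.40 on Cre, and 12.28, 11.39 and 13.21 on WNT4 arrays. H2-D1 read 9.60, 9.58 and 9.97, then 9.80, 10.08 and 10.94, then 11.51, 10.55 and 11.72. Both had WNT4 arrays wholly above GFP, and Cre 3 stood well above the other Cre arrays. The WNT4 differences from GFP were 1.49 ± 0.50 for H2-K1 and 1.54 ± 0.35 for H2-D1. Their other probe sets gave less, down to 0.39 for H2-K1 and 0.00 for H2-D1, and class I heavy chains are near-identical paralogs whose probes can read each other. Over the list of 14 measured heavy chains, 7 of which averaged under 6, the median was -0.01 (0.69 without dim probe sets), with 4 higher and 0 lower at an unadjusted p under 0.05. The genes H2-T23, H2-L and 10 other heavy chain genes were not analysed here.

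The chaperones that fold heavy chains and build the loading complex had higher means on WNT4 arrays, while their median difference of Cre from GFP was -0.01. Of 6 measured, 4 were higher and 0 lower at an unadjusted p under 0.05, with a median difference from GFP of 0.60. Pdia3, the disulfide isomerase that is bound to tapasin, differed by 1.05 ± 0.32, and its other probe set by 0.54. Calr, the lectin chaperone calreticulin, differed by 0.97 ± 0.32. Against Cre, Pdia3 and Calr gave 1.09 and 1.00. Canx, calnexin, differed from GFP by 0.59 ± 0.24. Uggt1, which sends misfolded glycoproteins back to these lectins, differed by 0.61 ± 0.17, and its other probe sets by 0.07 and 0.62. Tapbpl, a tapasin relative that edits peptides, differed by 0.13. Most of these genes also serve general protein folding in the endoplasmic reticulum. The median of the 6 was 0.40 without WNT4 1 and 0.30 after quantile normalization.

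The standard proteasome genes had slightly higher means on WNT4 arrays in the deposited values. After quantile normalization the catalytic median was near 0 and the core and cap medians were below it. The catalytic subunits Psmb5, Psmb6 and Psmb7 differed from GFP by 0.55 ± 0.13, 0.26 ± 0.13 and 0.42 ± 0.14, with 2 of 3 higher at an unadjusted p under 0.05. Of 11 other core subunits 3 were higher, among them Psmb4 by 0.53, with its other probe set at 0.22. Of 20 subunits of the 19S cap, which unfolds substrates, 9 were higher, among them Psmd8 by 0.88 and Psmd5 by 0.50. None of these was lower. The list medians of 0.42, 0.31 and 0.30 were 0.07, -0.07 and -0.03 after quantile normalization, so no direction is read for the core and cap lists. Without WNT4 1 they were 0.28, 0.18 and 0.23. Quantile normalization left 0.68 for the median of the 9 processing genes. Of 8 other activators, inhibitors and assembly factors, none passed. Psme3 (PA28 gamma), Psme4 (PA200) and the assembly factor Pomp differed by 0.17, 0.31 and 0.06. Of 6 other peptidases 2 were higher, with Npepps, a cytosolic aminopeptidase, at 1.15 ± 0.23 and its other probe sets down to 0.04. The peptidase median of 0.32 was 0.06 after quantile normalization. On Cre arrays the medians of these 5 lists lay between -0.03 and 0.06, and 1 of their 48 genes, Psmd8, was higher than GFP at an unadjusted p under 0.05.

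**Figure D4:**
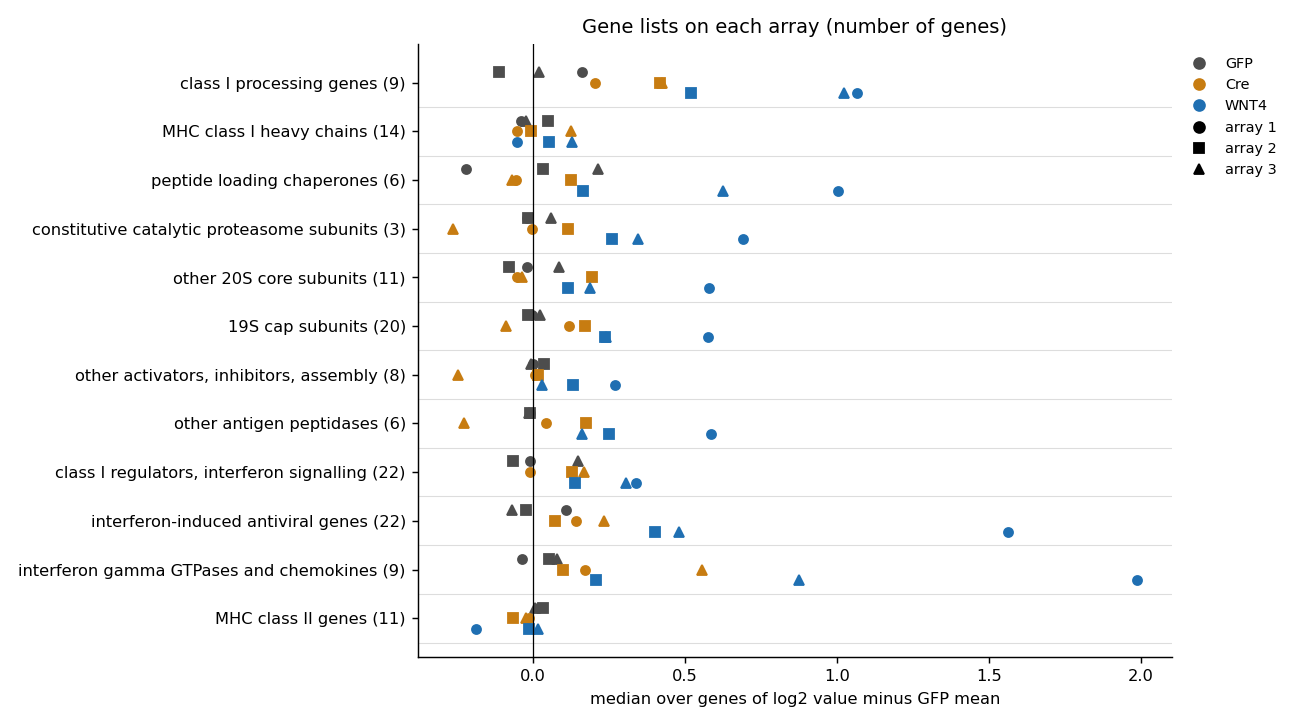
Median over the genes of each list of the log2 value minus the GFP mean, 1 point per array, with colour for the virus and shape for the array number. The 2 interferon lists reach 1.56 and 1.99 on WNT4 1, the 9 class I processing genes reach 1.07, and the heavy chain and class II lists stay near 0. Of the 14 heavy chains 7 are dim, and without dim probe sets their median difference of WNT4 from GFP is 0.69. Of the 11 class II genes 10 are dim.

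Genes that regulate class I transcription gave mixed values. Nlrc5, the class I transactivator, was dim on every array, between 4.94 and 5.55, and differed by 0.06. Irf1, which binds interferon response elements, read 8.64, 8.69 and 8.88 on GFP, 8.73, 8.49 and 9.36 on Cre, and 9.04, 8.80 and 9.70 on WNT4 arrays. Array 3 was the highest of each group, and WNT4 2 was below GFP 3. The difference was 0.44 ± 0.27. Irf9, the DNA-binding part of the interferon-activated complex ISGF3, read 5.97, 5.75 and 6.27 on GFP, 6.51, 6.62 and 7.10 on Cre, and 8.80, 6.84 and 7.42 on WNT4 arrays. Both other groups lay above GFP, and WNT4 1 stood far above the rest. Its difference of WNT4 from GFP was 1.69 ± 0.43. Without WNT4 1, a choice added after the data were seen for these genes, it was 1.13. Its partner gene Stat2 and the related factor gene Irf2 were dim and differed by 0.57 and 0.33, or 0.37 and 0.10 without WNT4 1. Rela, an NF-kappaB subunit gene, differed by 0.69. Of the 22 regulators measured 8 were higher and 0 lower at an unadjusted p under 0.05, with a median of 0.31, which was 0.12 after quantile normalization and 0.16 with arrays centred on the 75th percentile. Nfkb1 was not analysed here.

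The lists of interferon-responsive genes outside the class I pathway also had higher medians on every WNT4 array than on the GFP arrays, WNT4 1 most of all. Of 22 antiviral genes 13 were higher and 1 (Zbp1, by -0.61) was lower than GFP at an unadjusted p under 0.05, with a median difference of 0.87. Ifih1, an RNA sensor, differed by 1.72 ± 0.36 and Irf7, a driver of type I interferon genes, by 1.34 ± 0.35. The list's median on single arrays was 1.56 for WNT4 1, then 0.40 and 0.48 for the arrays numbered 2 and 3, and 0.07 to 0.23 on Cre arrays. Without WNT4 1 its difference was 0.56. Of 9 interferon gamma GTPases and chemokines 6 were higher and 0 lower, with a median of 1.08. Gbp3 and Irgm2, GTPases of cell-autonomous immunity, differed by 1.69 ± 0.55 and 1.34 ± 0.40. That median was 0.45 without WNT4 1. On single arrays the list's median was 1.99, 0.21 and 0.88 on WNT4 and 0.17, 0.10 and 0.56 on Cre arrays. WNT4 2 was thus below Cre 3. Of the 22 antiviral genes 8 averaged under 6, and of these 9 genes 4 did, Gbp3 among them. Gbp2, a guanylate-binding protein, read 6.51, 6.25 and 6.84 on GFP, 6.71, 6.92 and 8.24 on Cre, and 8.25, 6.97 and 8.02 on WNT4 arrays. Cre 3 was as high for Gbp2 as WNT4 1. The median of the 9 processing genes on WNT4 1, 2 and 3 was 1.07, 0.52 and 1.02, with single members highest on either WNT4 1 or WNT4 3.

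Class II genes and leukocyte markers as lists were not higher on the WNT4 arrays, but several macrophage markers were higher on the arrays numbered 3. Of 11 class II genes 0 were higher and 1 was lower, 10 averaged under 6, and the median was -0.01. The class II transactivator gene Ciita lay between 4.76 and 5.09. Cd74, the invariant chain that guides class II, differed by 0.09. H2-Ab1, a class II beta chain, read 4.70 to 5.03 on 7 arrays, but 8.06 on Cre 3 and 7.85 on WNT4 3. That is 1 of its 3 probe sets, with differences from GFP of 1.05 for Cre and 1.00 for WNT4. Its other probe sets gave less, down to 0.01 and 0.11. Of 24 leukocyte markers 1 was higher and 2 were lower on WNT4 than on GFP arrays, and 14 averaged under 6. Their summed linear level ran from 3120 to 4116 on GFP, 3166 to 3977 on Cre and 1538 to 3047 on WNT4 arrays. Much of that lower sum was 1 probe set of Laptm5, a lysosomal gene of blood cells, which read 6.98, 10.22 and 8.76 on WNT4 arrays. This is 1 of 5 Laptm5 probe sets, whose WNT4 differences from GFP ran from -2.12, for this one, to 0.48. Without Laptm5, a choice made after the data were seen, the sums were 1520 to 2464, 1509 to 2409 and 1412 to 2281. No leukocyte marker was at 0, because these values have no true zero. Ptprc (CD45) read 5.49 on GFP 3, 5.69 on Cre 3 and 5.68 on WNT4 3, above the other arrays of each group, which lay at 4.34 to 4.84. In all, 7 of the 24 markers were highest on array 3 in each group: Ptprc, Csf1r, Cd68, Adgre1, Fcer1g, Cd53 and Itgb2, mostly of macrophages and other myeloid cells. Csf1r, the receptor that macrophages need, read 7.87, 8.44 and 8.23 there. Other myeloid markers of the list did not share this. The complement genes C1qa, C1qb and C1qc, all dim, were each lowest on Cre 3 and WNT4 3. Lyz2, Tyrobp and Itgam were not highest on array 3 in each group. Of the 9 processing genes, array 3 was the highest of the GFP arrays for 2 (B2m and Erap1, with Psmb10 tied), of the Cre arrays for 6 and of the WNT4 arrays for 3. Any part of leukocyte RNA in the Cre 3 and WNT4 3 values was not tested. In bulk RNA, fewer cells of a type and less RNA per cell cannot be told apart.

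The means of oocyte markers shared the members' direction without passing the test, but the arrays of the groups overlapped. Of the 10 measured, 10 had higher means on WNT4 and 9 on Cre than on GFP arrays, with median differences of 0.53 and 0.40, and none passed at an unadjusted p under 0.05. Of 17 granulosa markers 3 were higher (Star, Cyp11a1 and Nr5a1) on WNT4 than on GFP arrays at limma's unadjusted p under 0.05. The 3 lower ones were Bmpr1b, Esr2 and Foxl2. With Cre against GFP 0 were higher and 3 lower (Foxl2, Bmpr1b and Amh), where 1.22% of all probe sets were lower. Foxl2 differed by -0.32 with WNT4 and -0.28 with Cre, with both groups wholly below GFP. Its other probe set gave -0.12 and -0.09. None of 10 theca and stroma markers passed, and of 10 endothelial markers 0 were higher and 1 was lower. Their adjusted calls were 0, as were those of all other lists here. The oocyte list's median was 1.62, 0.10 and -0.03 on WNT4, 0.94, 0.51 and -0.22 on Cre, and -0.22, 0.67 and -0.40 on GFP arrays. WNT4 2 and WNT4 3 were thus below GFP 2. The theca and stroma list's median was 0.64 on WNT4 1. Whether these cells have a part in the WNT4 1 values was not tested.

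The genes most like the 9 members across the 9 arrays, by Pearson's r with the mean of their centred log2 values, were Nfil3 (0.990), Ammecr1l (0.987), Antxr2 (0.984), Atp6v0b (0.983) and Pip5k1a (0.983). They were picked as the highest of 10547 genes, of which 413 had an r over 0.9. Nfil3, a bZIP transcription factor gene, read 6.90, 6.70 and 6.82 on GFP, 7.08, 7.28 and 7.66 on Cre, and 8.71, 7.63 and 7.93 on WNT4 arrays. These arrays share a scaling and 3 groups, so r describes likeness in these 9 arrays only. None of the 5 belongs to the lists described here.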

How the data were processed

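RNA of 9 cultures was hybridised to Affymetrix mouse expression arrays, 3 per virus. The deposited log2 values were made with RMA, which corrects background, normalizes between arrays and summarises probes, per the submitters' processing notes. Which version of RMA was run is not given. Values from 3.46 to 15.3 fitted a log2 scale. No pair of arrays shared over 4.53% equal values.

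Of 45101 probe sets, 64 controls were left out. Names came from the platform annotation, updated through RefSeq for 34741 of 34945 probe sets with 1 symbol, while 932 had several and 9160 none. Limma 3.58.1 (R 4.3.3) fitted all 9 arrays without covariates, two-sided, with Benjamini-Hochberg adjustment over 45037 probe sets. The script was tested on simulated data. For a gene with several probe sets, the one of highest mean was used. A probe set averaging under 6 was called dim.

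The members and all gene lists were chosen with earlier results of these data known. Named genes were all members, fixed genes of the pathway lists, the genes with the lowest p in each list (up to 2 per comparison with GFP), and the 5 genes most like the members. Of these, some are given in counts only, and the array values of marker genes were added after they were seen. Alternatives were normalization, filter, probe set choice, trend, pair fits, the replicate block, a 0.1 threshold and leaving out each array. Deviations of same-numbered WNT4 and Cre arrays from their group means correlated at 0.21, 0.24 and 0.77, over 0.1 in every pair. Same-numbered GFP arrays did not pass 0.1 in every pair with either group. Unlike-numbered pairs were as high: Cre 1 with WNT4 2 at 0.28 and Cre 2 with WNT4 1 at 0.32. Between Cre and WNT4, only the pair numbered 3 stood out. A pairing by number is therefore not shown by the data, and the labels give only numbers.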

Additional observations from a re-analysis of the deposited data

How the results depend on the processing

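The 9 genes' median difference kept its direction in all comparisons under every alternative run. For WNT4 against GFP it was 0.68 after quantile normalization and 0.64 with all probe sets of a gene averaged, and 0.73 to 1.02 with 1 array left out. For Cre against GFP it was 0.15 with probe sets averaged and 0.21 to 0.43 with 1 array left out. For WNT4 against Cre it was 0.39 to 0.69 with 1 array left out. The count of all probe sets called for WNT4 against GFP, 7 as reported, was 3 after quantile normalization, 17 centred on the 75th percentile, 15 without dim probe sets, 1 with a mean-variance trend, 0 with the arrays of the pair alone, 32 at an adjusted p under 0.1 and 0 to 748 with 1 array left out. It was 0 to 1 for Cre against GFP with 1 array left out. Member probe sets called were 0 to 4 with 1 array left out for WNT4 against GFP, and 8, 5 and 6 at an unadjusted p in the 3 comparisons. At an adjusted p under 0.1, an alternative for members added after the data were seen, they were 0 in all 3. The cause of these shifts was not tested. With the replicate number as a block, 10 probe sets were called for WNT4 against GFP and 0 for WNT4 against Cre, no member among them, so the block changed no member's call. Centring on the 75th percentile moved the median of all probe sets by -0.15 for WNT4 against GFP. With 3 arrays a group, the number of arrays limits precision, and dim probe sets cannot show small differences.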
